A study of Mus musculus with 8 samples.

Results

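The change of gene expression with genotype in the muscle of SCA17 mice was set against the change in their cerebellum, gene by gene. The quantity is a difference of differences on the log2 scale: KI minus WT in muscle, minus KI minus WT in cerebellum. It is positive where a gene stood higher in KI muscle, relative to WT, than it did in KI cerebellum. A gene entered where the array platform gave it a single symbol and where at least 2 of the 4 arrays of each tissue reached the 40th percentile of that array's probe sets. Of 19938 genes with 1 symbol, 12866 met this rule. The rule took in 506 genes that had exactly 2 arrays above the percentile in their weaker tissue and left out 591 that had 1. It does not show that a gene is expressed in both tissues, since the 40th percentile of an array lay between 4.96 and 5.05, close to the array medians of 5.40 to 5.51.

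The 8 arrays formed 4 groups of 2: SCA17 KI cerebellum and SCA17 KI muscle (replicates 94 and 97 of each), and WT cerebellum and WT muscle (replicates 95 and 96 of each). The muscle was tibialis anterior (TA), the mice were 3 months old, and total RNA was hybridised to Affymetrix Mouse Gene 1.0 ST arrays. KI stands for a knock-in of the SCA17 allele of Tbp. The labels give neither the repeat length nor the strain or sex, and the study text speaks of 3 mice of each genotype. The p values measure the spread between the arrays of a group, which the labels do not describe as separate animals, and their precision is limited by so few arrays.

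Spinocerebellar ataxia type 17 is caused by a lengthened run of glutamines in the TATA-box-binding protein, TBP, which sits in the initiation complexes of all nuclear RNA polymerases. The protein is made in every cell, yet the disease is known mainly for loss of Purkinje cells, the output neurons of the cerebellar cortex. Muscle fibres are large multinucleate cells that depend on a nerve contact, a calcium store and a high turnover of ATP, and they have known expression responses to loss of that contact. The comparison asks whether the same genotype went with different changes in muscle and in cerebellum.

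The tissues were as labelled: all 12 muscle fibre markers were higher on every muscle array than on every cerebellum array, and all 9 cerebellar neuron markers on the arrays were higher on every cerebellum array. Arrays of 1 group correlated with r from 0.977 to 0.989 over probe sets. Tbp itself did not check the genotype, because the arrays measure its RNA and not its repeat. Its log2 level was 7.85 and 7.71 in WT cerebellum, 7.68 and 7.52 in KI cerebellum, 6.70 and 6.81 in WT muscle and 6.80 and 6.94 in KI muscle. The difference between tissues was 0.29 ± 0.16 (SE; adjusted p = 0.417). In bulk tissue, fewer cells of a type and less RNA per cell cannot be told apart.

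Few genes passed the test for a difference of the genotype effect between the tissues. Serpinb1a, Casq2 and Ampd3 stood furthest above in muscle and Mss51 furthest below, while Lgals3bp and Ifitm3 rose more in the cerebellum. Of 12866 genes, 38 had a Benjamini-Hochberg adjusted p under 0.05 for the difference (0.295%), here termed called. The muscle effect was above the cerebellum effect for 27 of them (0.210%) and below it for 11 (0.0855%). With the arrays centred on their medians, the split of 36 calls was 32 to 4. In muscle alone 551 genes were called (4.28%), 413 of them higher (3.21%) and 138 lower (1.07%) in KI. In cerebellum alone 30 were called (0.233%), 20 higher (0.155%) and 10 lower (0.0777%). For all 38 called genes the muscle arrays of the genotypes did not overlap, and for 25 of them the cerebellum arrays did not. Over all genes this held for 50.7% in muscle and 35.2% in cerebellum. At an unadjusted p under 0.05 the shares were 14.9% for the difference (10.4% positive and 4.58% negative), 21.3% in muscle and 5.60% in cerebellum.

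These counts depended on single arrays. Without WT cerebellum replicate 95 or without replicate 96 there were 0 calls for the difference in limma, with 1186 and 1628 genes at an unadjusted p under 0.05. Without KI cerebellum replicate 97 there was 1 call, without WT muscle replicate 96 there were 2, and without KI cerebellum replicate 94 or WT muscle replicate 95 there were 4. Without KI muscle replicate 97 there were 15, and without KI muscle replicate 94 there were 33. None of the 38 genes was called in all 8 of these fits, 24 were called in at least 1, and none changed direction in any of them. Some calls depended on low values. In 7 of the 38 genes (Car9, Gdpd3, Hs6st2, Krt27, Lix1, Musk and Tcap) both arrays of at least 1 group lay below their 40th percentile, so that these genes entered in that tissue through the other genotype. With every value below an array's percentile raised to it, 39 genes were called, 33 of them among the 38. Of the 7, Gdpd3 and Musk were called there, and Car9, Hs6st2, Krt27, Lix1 and Tcap were not.

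**Figure D1:**
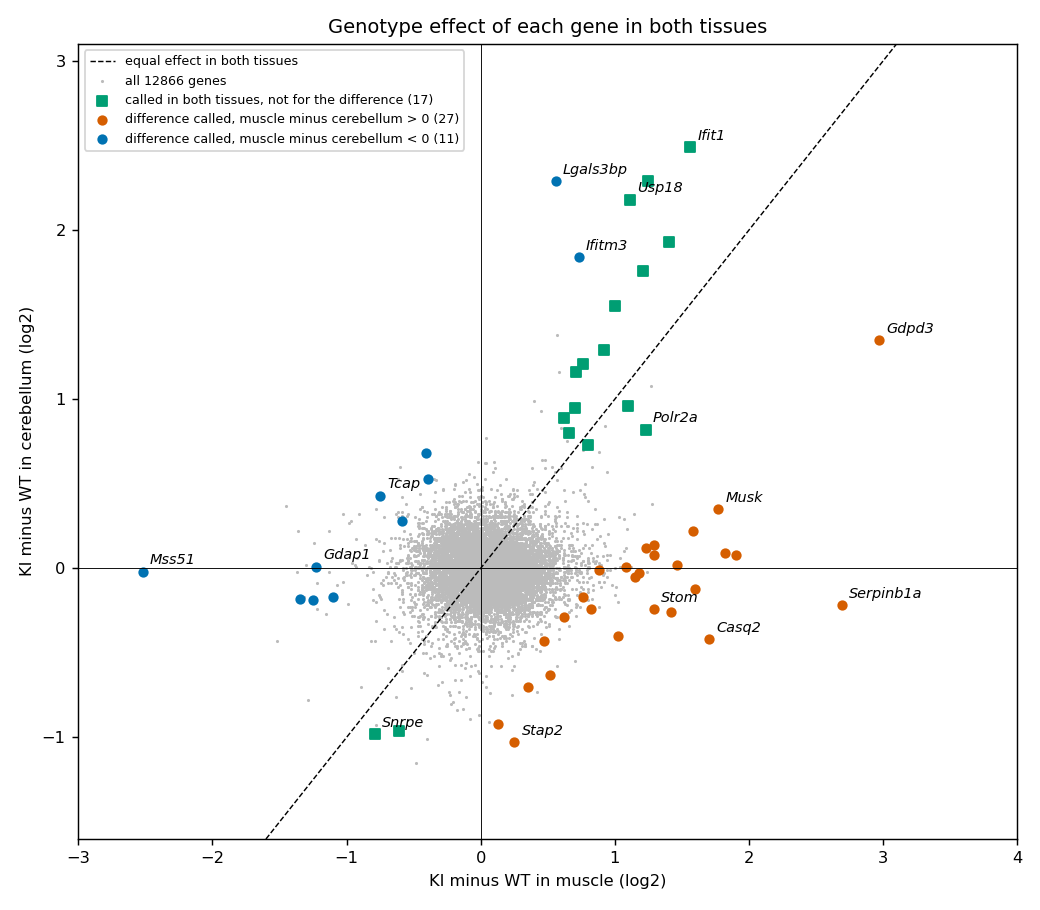
Each point is 1 of 12866 genes, with KI minus WT in muscle on the x axis and KI minus WT in cerebellum on the y axis, both in log2. Orange and blue circles are the 27 and 11 genes called for the difference, green squares are 17 genes called in both tissues and not for the difference, and the dashed line marks equal effects; most orange points lie near a cerebellum effect of 0, and most squares on the upper right lie above the line.

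Most genes called in 1 tissue were not called for the difference. Of the 551 genes called in muscle, 532 were not called in cerebellum, and 30 of these 532 were called for the difference. Over all muscle calls the share that passed was 32 of 551 (5.81%). The share of cerebellum calls that passed was 6 of 30 (20%). Of all genes 0.295% were called for the difference, which is computed from the same arrays as the tissue effects. Among the 519 muscle calls that did not pass, 454 had an unadjusted p under 0.05 for the difference, against 14.9% of all genes, and 284 had the same sign in cerebellum. The median SE of the difference was 0.175 against 0.124 for the muscle effect, and the median reach of its 95% interval to either side was 0.390, or 1.31-fold. The smallest difference among the 38 was 1.83-fold, and 31 of them reached 2-fold.

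Across all genes the effects of the tissues had little relation. Over the 12866 genes, which are not independent and share their arrays within a tissue, Pearson's r between the muscle and cerebellum effects was 0.0609 and Spearman's rank correlation was -0.0532. The SD of the effects was 0.258 in muscle and 0.168 in cerebellum. The median difference was 0.05, with 56.9% of genes positive, and it lay between -0.00 and 0.11 under the other scalings. It moved with the level of the gene: 68.5% of the brighter 6433 genes, by mean over the 8 arrays, were positive with a median of 0.12, against 45.3% and -0.03 in the dimmer 6433. At an unadjusted p under 0.05 in both tissues, 148 genes had the same sign (1.15%) and 87 had opposite signs (0.676%), of which 58 were higher in KI muscle and lower in KI cerebellum and 29 the reverse. The level in the tissues did not set the calls apart, since 13 of the 27 positive and 5 of the 11 negative calls had the higher mean level in muscle, as did 51.4% of all genes. On chromosome 17, which carries Tbp, lay 3 of the 38 called genes (Stap2, Prepl and Lix1) and 4.83% of all genes.

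**Figure D2:**
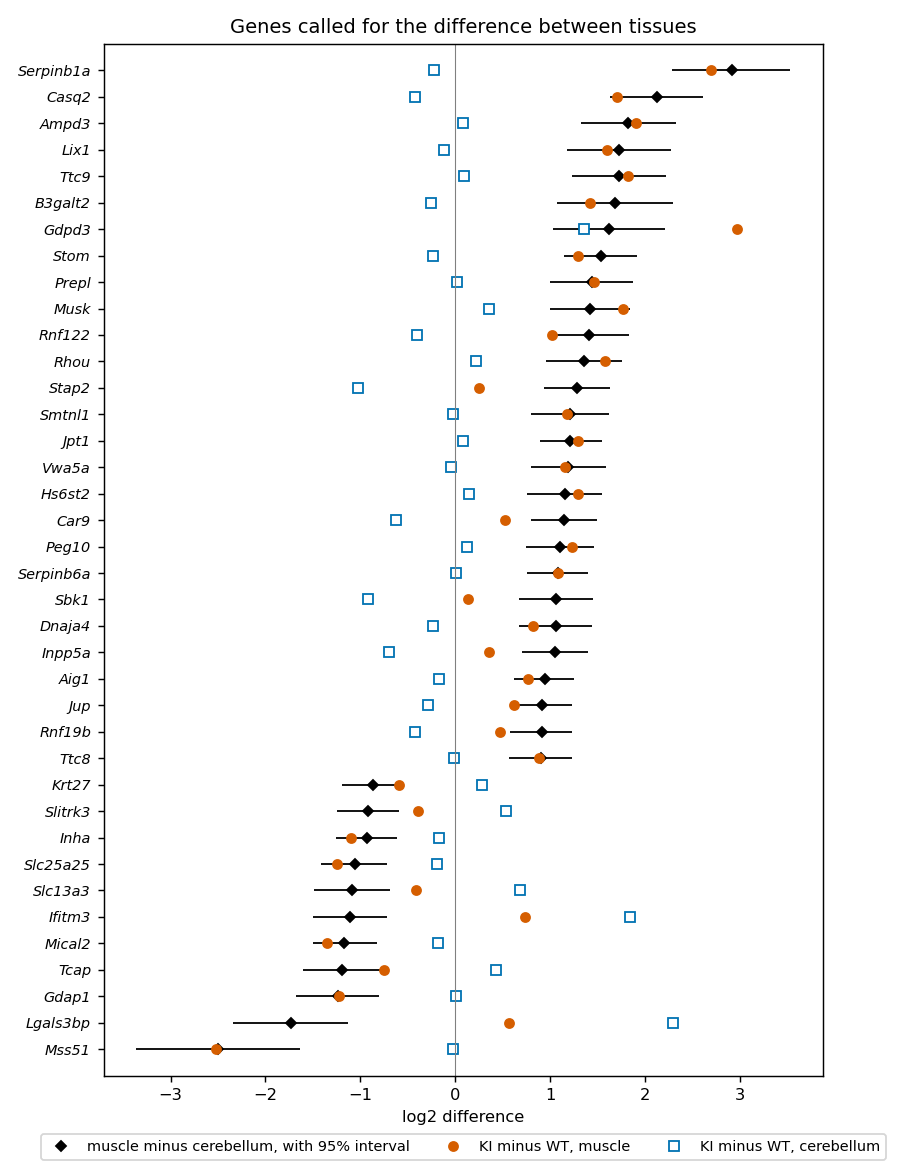
The 38 genes called for the difference are listed by its size, in log2 on the x axis. Black diamonds with bars are the difference and its 95% interval, orange circles are KI minus WT in muscle and open blue squares are KI minus WT in cerebellum; the circles are spread widely, and the squares farthest from 0 are those of Lgals3bp, Ifitm3, Gdpd3, Stap2 and Sbk1.

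The largest group of called genes changed in muscle with little change in cerebellum. For 22 of the 38, the unadjusted p was under 0.05 in muscle alone, 17 of them on the positive and 5 on the negative side. Serpinb1a (chromosome 13), an intracellular inhibitor of the serine proteases of neutrophils, had the largest difference. Its log2 level was 5.40 and 4.79 in WT muscle and 7.73 and 7.83 in KI muscle. In cerebellum it was 6.29 and 6.11 in WT and 6.20 and 5.77 in KI. The genotypes were far apart in muscle and overlapped in cerebellum. The lower WT muscle value, 4.79, lay below the percentile that its array had to reach for entry. The muscle fold and the difference thus rest in part on a value with little signal over background. The effect was 6.45-fold higher in KI muscle and 1.16-fold lower in KI cerebellum, a difference of 2.91 ± 0.28 (SE; adjusted p = 0.0144), called in 5 of the 8 fits that left out an array. Serpinb6a, the other member of this inhibitor clade among the calls, stood 2.12-fold higher in KI muscle and at a log2 effect of 0.01 in cerebellum (difference 1.08 ± 0.15; adjusted p = 0.0249).

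Ampd3 (chromosome 7) is an AMP deaminase, which turns AMP into IMP, and is known to rise in muscle that has lost its nerve. It read 6.54 and 6.39 in WT muscle and 8.60 and 8.13 in KI muscle. Its cerebellum levels were 6.91 and 6.96 in WT and 7.14 and 6.88 in KI, where the genotypes overlapped. The difference was 1.82 ± 0.22 (SE; adjusted p = 0.0227). Musk (chromosome 4), the receptor tyrosine kinase that organises the nerve-muscle synapse, read 6.84 and 6.68 in WT muscle and 8.68 and 8.39 in KI muscle. The cerebellum arrays gave 4.81 and 4.61 in WT and 4.99 and 5.13 in KI, with both WT arrays below their 40th percentile and the KI arrays close to it. KI stood 3.41-fold above WT in muscle, and no fold is given for these dim cerebellum values. The difference was 1.42 ± 0.19 (SE; adjusted p = 0.0234), and 1.70 ± 0.18 (SE; adjusted p = 0.00772) with values below the percentile raised to it.

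Stom (chromosome 2) encodes stomatin, an integral membrane protein of lipid rafts. It read 7.64 and 7.75 in WT muscle and 8.93 and 9.03 in KI muscle. In cerebellum it read 6.32 and 6.25 in WT and 6.20 and 5.90 in KI. KI was above WT in muscle and below it in cerebellum, without overlap in either, but only the muscle effect, 2.44-fold, was called (difference 1.53 ± 0.17, SE; adjusted p = 0.0227). Prepl, a serine hydrolase whose loss causes a myasthenic syndrome, was 2.75-fold higher in KI muscle at a cerebellum effect of 0.02. Its level was 8.13 and 7.88 in WT muscle and 9.59 and 9.34 in KI muscle, against 11.16 and 11.23 in WT cerebellum and 11.33 and 11.10 in KI cerebellum, where the genotypes overlapped.

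Gdpd3 (chromosome 7), a lysophospholipase D of the glycerophosphodiester phosphodiesterase family, was called in muscle, in cerebellum and for the difference. Its level was 4.98 and 4.74 in WT muscle and 7.69 and 7.97 in KI muscle. In cerebellum it was 4.59 and 4.63 in WT and 5.66 and 6.27 in KI. All KI arrays stood above all WT arrays, and all 4 WT arrays were below their 40th percentile. With the WT values raised to the percentile, the rise was at least 2.81 in muscle and at least 0.97 in cerebellum on the log2 scale. The difference of the measured values was 1.62 ± 0.26 (SE; adjusted p = 0.0420) and that of the raised values 1.84 ± 0.25 (SE; adjusted p = 0.0200). It rests on WT values near background in both tissues and has no bound. It was called in none of the 8 fits that left out an array, where the adjusted p was at least 0.0515.

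The other positive calls with an unadjusted p under 0.05 in muscle alone were of mixed function, and all of them had every KI muscle array above every WT muscle array. Ttc9, which has tetratricopeptide repeats, and B3galt2, a galactosyltransferase of glycoproteins and glycolipids, differed by 1.72 and 1.68. Rhou, an atypical small GTPase that acts on the cytoskeleton, differed by 1.36, and Jpt1, known as a microtubule-associated protein, by 1.21. Smtnl1, a smoothelin-like regulator of contraction in muscle, also differed by 1.21 and Vwa5a by 1.19. The imprinted gene Peg10 differed by 1.10. Dnaja4, a co-chaperone of HSP70, differed by 1.06, Aig1 by 0.94 and Ttc8, a subunit of the BBSome of primary cilia, by 0.90. In cerebellum their effects lay between -0.26 (B3galt2) and 0.22 (Rhou), and none was called there. Lix1 and Hs6st2, a sulfotransferase of heparan sulfate, had both WT muscle arrays below the 40th percentile and entered in muscle through the KI arrays. With those values raised to the percentile, the rise in KI muscle was at least 1.82-fold for Lix1 and at least 1.88-fold for Hs6st2. The difference went from 1.72 to 0.98 for Lix1 (adjusted p = 0.103) and from 1.15 to 0.77 for Hs6st2 (adjusted p = 0.0859), and neither was called.

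**Figure D3:**
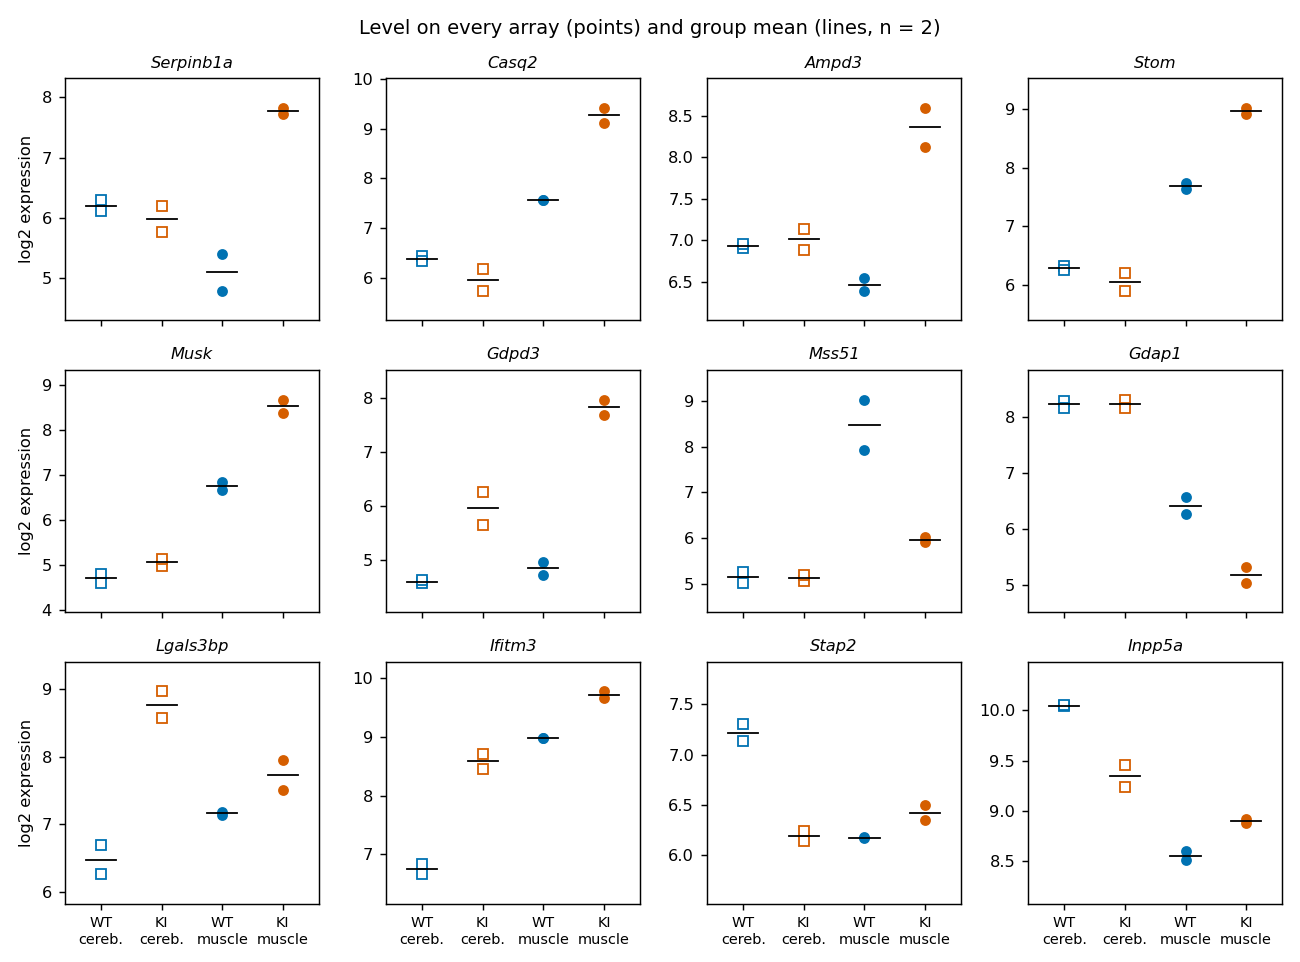
Log2 level of 12 called genes on every array (points), with the mean of each group of 2 as a line; open squares are cerebellum, filled circles are muscle, blue is WT and orange is KI. The top row and Musk separate by genotype in muscle far more than in cerebellum, Lgals3bp and Ifitm3 rise in both and more in cerebellum, and Stap2 and Inpp5a move in opposite directions.

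On the negative side, 5 called genes were lower in KI muscle with a cerebellum effect of -0.19 to 0.01. Mss51 (chromosome 14), a mitochondrial protein of skeletal muscle known to restrain oxidative metabolism, had the largest value. It read 9.03 and 7.93 in WT muscle and 6.01 and 5.91 in KI muscle. Its cerebellum levels were 5.26 and 5.02 in WT and 5.06 and 5.19 in KI. Its muscle groups did not overlap, though the WT arrays were themselves well apart, and its cerebellum groups overlapped. The fall was 5.74-fold and the difference was -2.50 ± 0.39 (SE; adjusted p = 0.0402).

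Gdap1 (chromosome 1), a protein of the mitochondrial outer membrane whose mutations cause Charcot-Marie-Tooth neuropathy, read 6.27 and 6.57 in WT muscle and 5.32 and 5.05 in KI muscle. The cerebellum arrays gave 8.29 and 8.16 in WT and 8.31 and 8.16 in KI. The fall in muscle was 2.35-fold, the cerebellum arrays overlapped, and the difference was -1.24 ± 0.20 (SE; adjusted p = 0.0412). Slc25a25, a mitochondrial carrier that exchanges ATP-Mg for phosphate, fell 2.38-fold in muscle (difference -1.06). Mical2, a flavoprotein that oxidises actin, fell 2.55-fold (difference -1.17), and Inha, the inhibin alpha subunit, fell 2.15-fold (difference -0.93). For Mical2, Slc25a25 and Inha the KI cerebellum arrays were also below the WT ones, by 1.12-fold to 1.14-fold, and these cerebellum effects were not called.

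In 11 called genes the effects of the tissues had opposite signs at an unadjusted p under 0.05 in each. This held for 0.676% of all genes. Choosing genes by a large difference favours opposite signs, so the 2 shares cannot be compared. For Car9, Tcap and Krt27 the opposite signs rested on values below the 40th percentile, and for Slitrk3 1 KI muscle array lay below it. On the positive side were Casq2, Rnf122, Stap2, Car9, Inpp5a, Jup and Rnf19b, and on the negative side Tcap, Slc13a3, Slitrk3 and Krt27. Casq2 (chromosome 3), the calcium-binding protein of the sarcoplasmic reticulum in heart and slow fibres, read 7.57 on both WT muscle arrays and 9.12 and 9.42 in KI muscle. In cerebellum it read 6.43 and 6.33 in WT and 5.74 and 6.18 in KI. The rise in muscle was 3.25-fold, and the cerebellum effect was 1.34-fold lower and not called (adjusted p = 0.764). The difference was 2.12 ± 0.22 (SE; adjusted p = 0.0144), called in 4 of the 8 fits that left out an array.

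Stap2 (chromosome 17), an adaptor protein of cytokine signalling, differed mainly through the cerebellum. It read 7.30 and 7.14 in WT cerebellum and 6.14 and 6.24 in KI cerebellum, a fall of 2.04-fold. In muscle it read 6.17 and 6.18 in WT and 6.50 and 6.35 in KI, 1.19-fold higher and not called. The difference was 1.28 ± 0.16 (SE; adjusted p = 0.0227). Inpp5a (chromosome 7), the phosphatase that ends the IP3 signal and is abundant in Purkinje cells, read 10.04 and 10.05 in WT cerebellum and 9.24 and 9.46 in KI cerebellum. In muscle it read 8.60 and 8.51 in WT and 8.92 and 8.88 in KI. The genotypes were apart in both tissues and in opposite directions. The cerebellum fall of 1.63-fold was called and the muscle effect of 1.27-fold was not, with a difference of 1.05 ± 0.16 (SE; adjusted p = 0.0369).

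Sbk1, a serine/threonine kinase of brain, was the only called gene with an unadjusted p under 0.05 in cerebellum alone. It read 8.78 and 8.89 in WT cerebellum and 7.77 and 8.05 in KI cerebellum, a fall of 1.90-fold, against 6.40 and 6.54 in WT muscle and 6.65 and 6.56 in KI muscle. The difference was 1.06 ± 0.18 (SE; adjusted p = 0.0449). Markers of cerebellar neurons moved beside these falls: the mean log2 level of 9 of them was 10.30 to 10.38 in WT cerebellum and 9.79 to 10.08 in KI cerebellum. Their part in the differences of Stap2, Inpp5a and Sbk1 was not tested.

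Tcap (chromosome 11) encodes telethonin, which caps titin at the Z-disc of the sarcomere. It read 9.87 and 9.80 in WT muscle and 8.90 and 9.26 in KI muscle, a fall of 1.69-fold. Its cerebellum levels were 4.69 and 4.83 in WT and 5.16 and 5.24 in KI, with the WT arrays below the 40th percentile, and this effect was not called. The difference was -1.19 ± 0.19 (SE; adjusted p = 0.0402), and -0.96 (adjusted p = 0.0641) with the low values raised to the percentile. Slitrk3, an adhesion protein that organises inhibitory synapses, and Slc13a3, a sodium-coupled carrier of dicarboxylates, were called for the difference (-0.92 and -1.09) and in neither tissue. Slitrk3 was 1.44-fold higher in KI cerebellum and 1.31-fold lower in KI muscle, and Slc13a3 was 1.60-fold higher and 1.33-fold lower. Krt27, a keratin of hair follicles, differed by -0.87 and read between 4.88 and 5.59 on all 8 arrays, near the background, and with raised values it was not called (-0.75, adjusted p = 0.0641). Car9, a membrane carbonic anhydrase induced by hypoxia, differed by 1.14 at levels between 4.60 and 5.41. Both WT muscle and both KI cerebellum arrays of Car9 were below the percentile, so it entered in each tissue through the group where it was higher. With raised values its effects were 0.10 in muscle and -0.30 in cerebellum, and the difference was 0.39 (adjusted p = 0.272). Jup (plakoglobin of the desmosome) differed by 0.91. The ubiquitin ligases Rnf122 and Rnf19b differed by 1.41 and 0.91, each called higher in KI muscle and not called in cerebellum.

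Of the 19 genes called in both tissues, 10 were interferon-stimulated genes of the list used here. Interferons act on their target genes through a short DNA element, the interferon-stimulated response element (ISRE), and the genes it drives block viral entry, sense viral RNA or modify proteins. Of 39 listed interferon genes, 30 were among the 12866. In muscle 18 of them rose and none fell, against 3.21% and 1.07% of all genes. In cerebellum 13 rose and none fell, against 0.155% and 0.0777% of all genes. In both tissues 10 of them rose, as did 17 of all 12866 genes. These counts include Ifit1 and Rtp4, whose WT cerebellum arrays all lay below the percentile used for entry. Both entered in cerebellum through the KI arrays, where they were higher. With values raised to the percentile, their cerebellum effects were 2.01 and 1.54. Over the 30 genes the median effect was 0.67 in muscle and 0.80 in cerebellum, against 0.03 and -0.01 over all genes. The difference was called for 2 of the 30, both negative, where 0.0855% of all genes were called negative. The median difference was -0.16, with 18 of 30 negative, and it lay between -0.16 and -0.10 under the other scalings. At an unadjusted p under 0.05, 8 were negative and 1 (Stat2) was positive, against 4.58% and 10.4% of all genes.

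Lgals3bp (chromosome 11), a secreted glycoprotein that binds galectins, rose 4.91-fold in KI cerebellum. It read 6.26 and 6.69 in WT cerebellum and 8.97 and 8.57 in KI cerebellum. In muscle it read 7.19 and 7.14 in WT and 7.95 and 7.51 in KI. KI was above WT without overlap in both tissues, but the muscle effect of 1.48-fold was not called, and the difference was -1.73 ± 0.27 (SE; adjusted p = 0.0402). Ifitm3 (chromosome 7), a membrane protein that blocks the entry of enveloped viruses, read 6.83 and 6.66 in WT cerebellum and 8.72 and 8.45 in KI cerebellum. In muscle it read 8.98 and 8.99 in WT and 9.78 and 9.66 in KI. It rose 3.59-fold in cerebellum and 1.66-fold in muscle, both called, with a difference of -1.11 ± 0.17 (SE; adjusted p = 0.0402). Lgals3bp was called in 1 of the 8 fits that left out an array and Ifitm3 in none, where its adjusted p was 0.0662 to 0.146.

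Usp18, the protease that removes ISG15 from proteins and dampens interferon signalling, came next by p and was not called for the difference. It read 5.01 and 4.83 in WT cerebellum and 7.20 and 6.99 in KI cerebellum, and 5.92 and 5.58 in WT muscle and 6.87 and 6.85 in KI muscle. Its difference was -1.07 ± 0.20 (SE; adjusted p = 0.0671). Oasl2, an oligoadenylate synthetase-like protein, had -1.04 (adjusted p = 0.122). Ifi27, a mitochondrial interferon-induced protein, had -0.81 (adjusted p = 0.108), and Ifit1, which binds viral RNA, -0.93 (adjusted p = 0.262). Both WT cerebellum arrays of Ifit1 were below the 40th percentile, and with raised values its difference was -0.61 (adjusted p = 0.358). Stat2, named after its values were seen, rose in muscle (0.47) and had a cerebellum effect of -0.06.

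**Figure D4:**
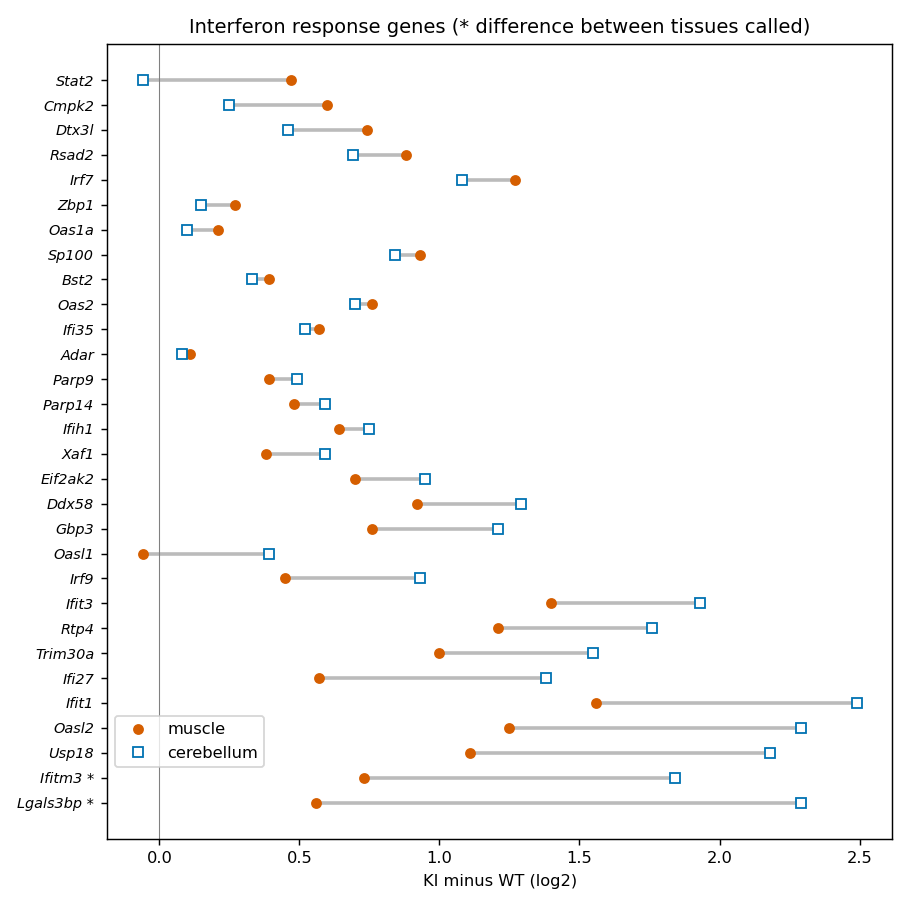
KI minus WT in log2 (x axis) for the 30 interferon-response genes, with muscle as orange circles and cerebellum as open blue squares, ordered by their difference. In each tissue 29 of the 30 points lie to the right of 0, and the longest lines belong to Lgals3bp, Ifitm3, Usp18, Oasl2 and Ifit1, where the square lies to the right of the circle.

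The genes called in both tissues numbered 19, and all 19 had the same sign. Higher in KI in both were 17: B2m, Ddx58, Eif2ak2, Gbp3, Gdpd3, H2-Q4, Ifit1, Ifit3, Ifitm3, Irgm1, Lgals9, Oasl2, Polr2a, Rnf213, Rtp4, Trim30a and Usp18. Lower in both were 2, Snrpe, a core protein of spliceosomal particles (-0.79 in muscle and -0.98 in cerebellum), and the small nucleolar RNA Snord14e. Of these 19, B2m, Gdpd3, H2-Q4, Irgm1, Lgals9, Polr2a, Rnf213, Snord14e and Snrpe are not on the interferon list. The estimate was larger in cerebellum for 15 of the 19, and 2 (Gdpd3 and Ifitm3) were called for the difference. The 19 were chosen by their calls, and with 30 calls in cerebellum against 551 in muscle the bar was stricter in cerebellum. That choice favours large cerebellum estimates, so the count of 15 does not compare the tissues. Over the 17 that rose, the median effect was 1.00 in muscle and 1.29 in cerebellum, under the same choice. For Gdpd3, Ifit1 and Rtp4 both WT cerebellum arrays were below the 40th percentile, so they entered in cerebellum through the KI arrays. With values raised to the percentile, their cerebellum effects went from 1.35, 2.49 and 1.76 to 0.97, 2.01 and 1.54. B2m, H2-Q4, Irgm1, Eif2ak2, Gbp3, Lgals9, Snrpe and Snord14e were named to complete this count, after their values were seen. Markers of macrophages and microglia moved beside these genes: the mean level of 14 markers was 5.58 on both WT cerebellum arrays and 5.77 to 5.79 in KI cerebellum, and 5.83 to 5.86 in WT muscle and up to 6.13 in KI muscle. Both KI arrays stood above both WT arrays in each tissue. Of the 11 markers among the 12866 genes, none was called in either tissue or for the difference, and their median effect was 0.29 in muscle and 0.26 in cerebellum. Their part in the interferon genes was not tested.

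Promoters of the genes that rose together were searched for the ISRE, GAAA followed by any 2 bases and GAAA again, on both strands of 300 bases around the start, most of them upstream. The sequences are those of RefSeq on GRCm38.p6. A match is a description of the letters and does not show a site in use. The promoter of Ifitm3 is shown whole, as the only negative call with a match, and 30 bases around the match nearest the start are shown for the other genes called in both tissues that hold one. Capitals mark every match that lies whole within the letters shown, and each is written on the strand on which it reads in this order. Those of Gbp3 and Irgm1 hold 2 overlapping matches, which run together.
Ifitm3 (chr7:141010695-141010994, minus strand): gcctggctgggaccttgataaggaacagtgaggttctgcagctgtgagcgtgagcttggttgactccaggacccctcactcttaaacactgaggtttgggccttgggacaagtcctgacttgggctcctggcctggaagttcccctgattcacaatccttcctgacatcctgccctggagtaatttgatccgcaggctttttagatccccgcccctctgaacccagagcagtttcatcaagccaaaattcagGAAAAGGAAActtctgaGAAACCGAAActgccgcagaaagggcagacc
B2m (chr2:122147538-122147567): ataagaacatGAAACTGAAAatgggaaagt
Ddx58 (chr4:40239804-40239833): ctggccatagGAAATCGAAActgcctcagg
Eif2ak2 (chr17:78882535-78882564): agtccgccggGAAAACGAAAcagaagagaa
Gbp3 (chr3:142559995-142560024): agggatctggGAAATAGAAACTGAAActgt
Ifit1 (chr19:34640794-34640823): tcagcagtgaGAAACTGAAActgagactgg
Ifit3 (chr19:34583397-34583426): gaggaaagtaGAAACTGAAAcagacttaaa
Irgm1 (chr11:48871425-48871454): tcaaGAAATAGAAACCGAAActgattctca
Lgals9 (chr11:78984890-78984919): gctgagctagGAAACAGAAAccacagctat
Trim30a (chr7:104446104-104446133): caggaactgaGAAAAAGAAActaaaaacaa

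The matches nearest the start in the 10 genes began between position -139 from the start base (B2m) and position 18 (Eif2ak2), and those of Ifitm3 began at positions 2 and 19. Some genes have several starts in the table. Among genes called in both tissues, 16 had a promoter in the table and 10 of these held a match. Over promoters the share was 61.1%, against 3.44% of all 32851 promoters of the table and 2.73% of the 13071 promoters of the genes tested. The interferon list held matches in 44.8% of its 29 promoters, from 12 of 23 genes. Genes called for the difference were near the share of all promoters on the positive side, with 1 of 22 genes (Serpinb6a) and 3.33% of 30 promoters. On the negative side 1 of 9 genes held a match. Lgals3bp held none in this window, and Usp18 had no entry.

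No gene of the machinery in which TBP works was called for the difference. Only 0.295% of all genes were called, so 0 calls in lists of this size do not set these genes apart. TBP nucleates TFIID with its TAF partners, SL1 for RNA polymerase I and TFIIIB for RNA polymerase III. Of 43 genes of these complexes and the general transcription factors, none was called for the difference, 6 were positive and 0 negative at an unadjusted p under 0.05 (10.4% and 4.58% of all genes were), and 33 were positive in estimate, against 56.9% of all genes and 68.5% of the brighter ones. Their median difference was 0.16 against 0.05 over all genes, and it was 0.15 to 0.21 under the other scalings. Taf9b, a TFIID and SAGA subunit, had the smallest p. It read 8.57 and 8.63 in WT muscle and 9.35 and 9.27 in KI muscle, and 9.17 and 9.03 in WT cerebellum and 9.26 and 8.99 in KI cerebellum. It rose in muscle, its genotypes overlapped in cerebellum, and the difference was 0.68 ± 0.17 (SE; adjusted p = 0.120). In muscle Taf1, Taf2, Taf9b and Ercc2 rose, by 0.51 to 0.71, where 3.21% of all genes were called higher. In cerebellum 0 of 43 were called, where 0.233% of all genes were. Gtf2e2 and Gtf2b, of TFIIE and TFIIB, had differences of 0.65 and 0.64 (adjusted p = 0.175 and 0.260). Taf2 and Ercc2 were named after their values were seen.

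Of 26 RNA polymerase subunits none was called for the difference, 21 were positive, and the median was 0.12 (0.03 to 0.18 under the other scalings). Polr2a (chromosome 11), which encodes the catalytic subunit RPB1 of RNA polymerase II, was higher in KI in both tissues. It read 7.50 and 7.62 in WT muscle and 8.79 and 8.78 in KI muscle. The cerebellum arrays gave 7.46 and 7.57 in WT and 8.23 and 8.43 in KI. KI was above WT without overlap in both tissues, by 1.23 in muscle (adjusted p = 0.000804) and 0.82 in cerebellum (adjusted p = 0.0154). The difference was 0.41 ± 0.16 (SE; adjusted p = 0.285). Polr2d, Polr1b and Polr3b had differences of 0.57, 0.35 and 0.33 and were called in neither tissue.

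The response of muscle to loss of its nerve is known to raise genes of the synapse and regulators such as Runx1. Of 22 listed genes, 14 were among those tested. The difference was called for Ampd3 and Musk, both positive, where 0.210% of all genes were called positive. At an unadjusted p under 0.05, 4 were positive and 2 negative, against 10.4% and 4.58% of all genes. The median difference was 0.07 and turned to -0.01 under both quantile scalings. In muscle Ampd3, Musk, Runx1 and Lrp4 rose, and Chrne, the epsilon subunit of the adult acetylcholine receptor, fell. Of all genes 3.21% were called higher in KI muscle and 1.07% lower. Runx1, a transcription factor, read 6.29 and 6.16 in WT muscle and 7.29 and 7.07 in KI muscle, with a difference of 0.76 ± 0.16 (SE; adjusted p = 0.0822). Lrp4, the partner of Musk that receives agrin, had a difference of 0.66 (adjusted p = 0.0940) and was named after its values were seen. Chrne read 7.69 and 7.56 in WT muscle and 7.22 and 7.10 in KI muscle, with a difference of -0.76 ± 0.16 (SE; adjusted p = 0.0793). Myog, the myogenic factor known to drive much of the response to denervation, had a muscle effect of -0.47 that was not called. It too was named after its values were seen. In cerebellum 0 of the 14 genes were called, where 0.233% of all genes were.

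Genes of excitation-contraction coupling, which turn the membrane potential into calcium release, had a median difference of -0.19 over 22 members (-0.23 to -0.14 under the other scalings), and Casq2 was the one called. In muscle Casq2 and Camk2d rose, and Jph2, Jph1 and Cacna1s fell, where 3.21% of all genes were called higher and 1.07% lower. Jph2, a junctophilin that ties the plasma membrane to the calcium store, read 8.00 and 7.88 in WT muscle and 7.29 and 7.31 in KI muscle. In cerebellum it read 5.60 on both WT arrays and 5.67 and 5.90 in KI. Its difference was -0.82 ± 0.16 (SE; adjusted p = 0.0729). Cacnb1, a subunit of the muscle calcium channel, had -0.52 (adjusted p = 0.190). Casq2 and Jph2, both of the calcium store, thus had values of opposite sign. Jph1 and Cacna1s were named after their values were seen.

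Among 17 potassium and sodium channel genes, none was called for the difference, where 0.295% of all genes were. Of these 17, 12 were negative and the median was -0.18 (-0.22 to -0.13 under the other scalings). In muscle Kcng4, Kcnc1, Kcnc4 and Kcnd2 fell, where 1.07% of all genes were called lower. In cerebellum none was called, where 0.233% of all genes were. Kcng4, a modifying subunit of potassium channels, read 7.41 and 7.55 in WT muscle and 5.79 and 6.13 in KI muscle. Its cerebellum levels were 7.92 and 8.08 in WT and 7.47 and 7.67 in KI. KI was below WT in both tissues without overlap, by 1.52 in muscle (adjusted p = 0.000804) and 0.43 in cerebellum (not called), with a difference of -1.09 ± 0.20 (SE; adjusted p = 0.0638). Kcnc1, a fast channel of the Kv3 class, had -0.67 (adjusted p = 0.117). Kcnd2 was named after its values were seen.

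Energy metabolism had small differences without calls. Of 37 respiratory chain and ATP synthase genes, 33 were negative with a median of -0.20 (-0.25 to -0.15 under the other scalings). None was called for the difference or in either tissue. Of all genes 0.295% were called for the difference, 4.28% in muscle and 0.233% in cerebellum. At an unadjusted p under 0.05, 2 of the 37 were negative, close to the 4.58% of all genes. Ndufs3 and Ndufs6 of complex I had -0.38 and -0.39, Uqcrc1 of complex III -0.33 and Atp5a1 of ATP synthase -0.27, each with an SE of 0.15 to 0.17. Of 24 glycolysis and glycogen genes none was called for the difference, 17 were negative, and the median was -0.04, which turned to 0.01 with the arrays centred on their medians. Gpd1, the cytosolic glycerol-3-phosphate dehydrogenase, and Phka1, the muscle subunit of phosphorylase kinase, fell in muscle by 0.78 and 0.75 on the log2 scale, and each had a difference of -0.58 (adjusted p = 0.149 and 0.158). Aldoc, the brain aldolase, had 0.76 (adjusted p = 0.257).

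Muscle fibre markers moved with these groups. The mean level of the 12 markers was 11.64 to 11.74 in WT muscle and 11.12 to 11.33 in KI muscle, and 5.59 to 5.82 in WT cerebellum and 5.61 to 5.75 in KI cerebellum. Of the 9 among the genes tested, none was called for the difference, where 0.295% of all genes were. All 9 were negative, with a median of -0.27 (8 of 9 and -0.30 to -0.22 under the other scalings). Tnni2, fast troponin I, read 11.11 and 11.01 in WT muscle and 10.39 and 10.63 in KI muscle, with a difference of -0.86 (adjusted p = 0.0729). Actn3, the alpha-actinin of fast fibres, had -0.72 (adjusted p = 0.110) and Ckm, muscle creatine kinase, -0.39 (adjusted p = 0.323). Tnni2, Actn3 and the calcium buffer Pvalb fell in KI muscle, where 1.07% of all genes were called lower. Pvalb was lower in KI in both tissues, with a mean of 12.24 in WT and 11.65 in KI muscle. In cerebellum its mean was 10.23 in WT and 9.65 in KI, an effect that was not called. The part of these markers in the falls of Mss51, Tcap, Jph2, the channels and the respiratory chain was not tested. Pvalb was named after its values were seen.

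**Figure D5:**
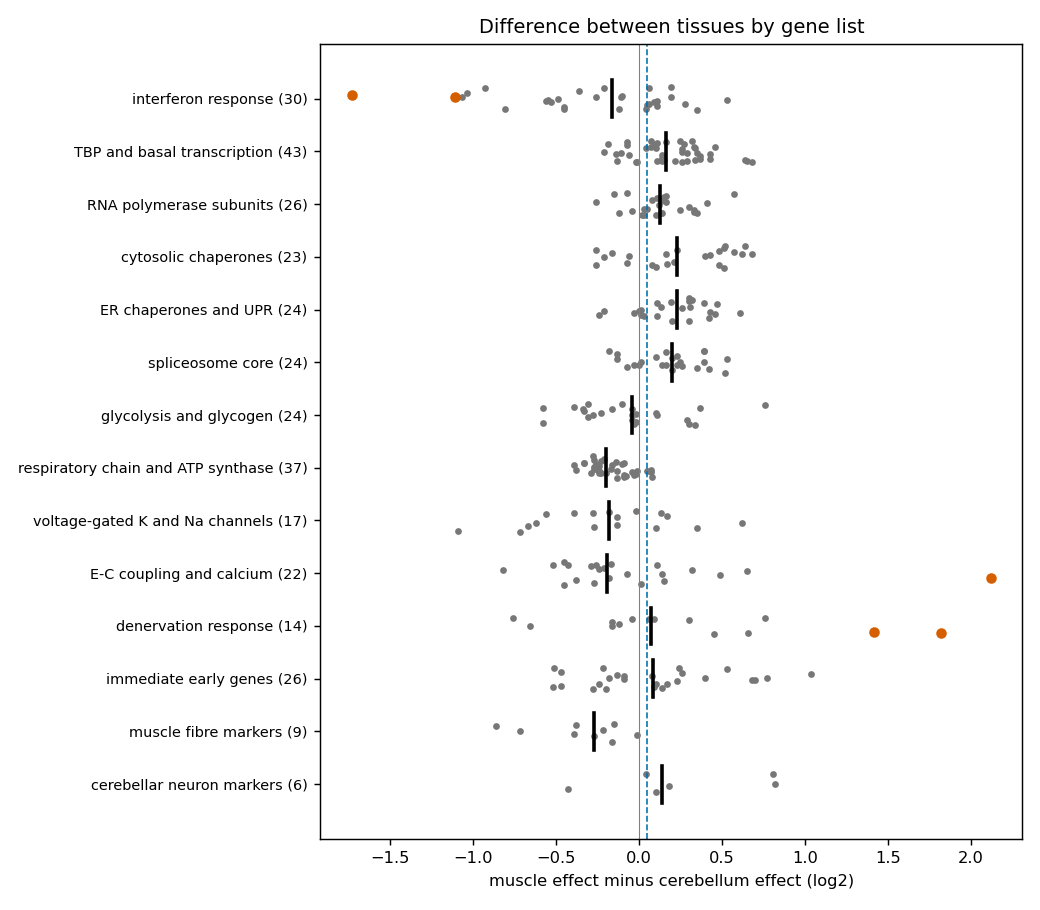
The difference between tissues in log2 (x axis) for every tested member of 14 gene lists (points, with the number of members in brackets), with the median of each list as a black bar and that of all 12866 genes as a dashed line. Orange points are called for the difference: Lgals3bp and Ifitm3 of the interferon list, Casq2 of excitation-contraction coupling, and Musk and Ampd3 of the denervation response.

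No chaperone or protein folding gene of the lists was called for the difference. With 0.295% of all genes called, this does not set lists of this size apart. Polyglutamine proteins are known to engage HSP70, its HSP40 partners and the small heat shock proteins. Of 23 cytosolic chaperone genes none was called for the difference, 10 were positive and none negative at an unadjusted p under 0.05, where 10.4% of all genes were positive and 4.58% negative. The median was 0.23 (0.23 to 0.28 under the other scalings), against 0.05 over all genes and 0.12 over the brighter ones. Hsp90aa1, the inducible HSP90, read 8.02 and 7.90 in WT muscle and 8.55 and 8.59 in KI muscle. The cerebellum arrays gave 10.65 and 10.49 in WT and 10.56 and 10.45 in KI, where the genotypes overlapped. Its difference was 0.68 ± 0.15 (SE; adjusted p = 0.0953). Hspb1, a small heat shock protein, had 0.64 (adjusted p = 0.135). The arrays hold 3 probe sets for Hsp90aa1 and 2 for Hspb1, and only the brightest of each is given here. Cryab, alphaB-crystallin, had 0.62 (adjusted p = 0.102) from effects of 0.16 in muscle and -0.46 in cerebellum, neither called. In muscle Hsp90aa1, Hspb1 and Hspa2 rose, the last named after its values were seen, where 3.21% of all genes were called higher. The heat shock element, searched as GAA, any 2 bases, TTC, any 2 bases and GAA on both strands, was in promoters of 4 of the 19 chaperone genes with an entry (20% of 30 promoters, against 0.603% of all promoters), namely Dnajb6, Hspd1, Hspe1 and Hsph1. None of these 4 was called in either tissue or for the difference.

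Of 24 genes of the endoplasmic reticulum, none was called for the difference, 20 were positive in estimate, against 56.9% of all genes and 68.5% of the brighter ones, and the median was 0.23 (0.14 to 0.29 under the other scalings). Atf6, a sensor of unfolded protein in that compartment, rose in muscle and had a difference of 0.61 (adjusted p = 0.128). Manf, a secreted protein of the same compartment, read 5.98 and 5.79 in WT muscle and 5.72 and 5.99 in KI muscle. In cerebellum it read 6.78 and 6.36 in WT and 6.50 and 6.55 in KI. The genotypes overlapped in both tissues, and the difference was 0.01 ± 0.22 (SE; 95% interval -0.47 to 0.49; adjusted p = 0.983). Of 21 ATF4 targets, the genes of the amino acid response, none was called for the difference. Slc7a5, a carrier of large neutral amino acids, had 0.96 (adjusted p = 0.0822) and rose in muscle, while Chac1, which degrades glutathione, had -1.22 (adjusted p = 0.0986) and fell in muscle. The median of that list was 0.02 and turned to -0.07 and -0.06 under the quantile scalings.

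No immediate early gene or cerebellar neuron marker was called for the difference. With 0.295% of all genes called, this does not set lists of this size apart. Of 26 immediate early genes, which neurons switch on within minutes of activity, the median difference was 0.08 (0.01 to 0.14 under the other scalings), and the median effect was -0.10 in muscle and -0.04 in cerebellum. The muscle effect was larger in size for 17 of them. Nab2, a repressor of the EGR factors, fell in cerebellum. It read 8.63 and 8.73 in WT cerebellum and 7.78 and 7.92 in KI cerebellum, and 7.25 and 7.22 in WT muscle and 7.12 and 7.09 in KI muscle. The difference was 0.70 ± 0.15 (SE; adjusted p = 0.0804). Nr4a2, an orphan nuclear receptor, had 1.04 (adjusted p = 0.140), Nab1 0.77 (adjusted p = 0.0986) and Fos 0.68 (adjusted p = 0.131), each with a cerebellum effect that was not called. Nr4a1 fell in muscle (-1.29) and had -0.78 in cerebellum, not called, and was named after its values were seen.

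Of 6 cerebellar neuron markers among the genes tested, 5 were positive and the median was 0.14. Pcp2, a Purkinje cell protein, read 8.53 and 8.84 in WT cerebellum and 7.56 and 8.02 in KI cerebellum, and 5.39 and 5.64 in WT muscle and 5.46 and 5.41 in KI muscle. Its difference was 0.82 ± 0.24 (SE; adjusted p = 0.168). Car8, a Purkinje cell protein that binds the IP3 receptor, had 0.81 (adjusted p = 0.284), Rbfox3, a splicing factor of neurons, 0.18 and Cbln1, a synaptic organiser secreted by granule cells, -0.43. Splicing genes had a median of 0.20 over 24 members (0.09 to 0.25 under the other scalings). None was called for the difference, where 0.295% of all genes were. Lsm3, U2af1, Sf3b1 and Snrpg, all core parts of the spliceosome, had differences of 0.52, 0.53, 0.39 and 0.39, and Snrpe, which fell in both tissues, had 0.20.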

How the data were processed

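Total RNA of cerebellum and TA muscle was measured on 8 Affymetrix arrays. The authors deposited 1 log2 value for each probe set and array. According to the submitters' processing notes these come from GCOS and RMA, a method that subtracts background, brings arrays to 1 distribution and summarises probes. Tool versions, the genome build and the set of arrays normalised jointly are not stated. Of 35556 probe sets, 21789 had 1 gene symbol in the platform annotation, 1621 several and 12146 none. The probe set with the highest mean over the 8 arrays stood for a gene, and all 38 called genes had 1 probe set. Chromosomes and promoters came from RefSeq tables (GRCm38.p6), where 12831 of the 12866 genes matched by gene ID.

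One model with 4 group means was fitted with limma 3.58.1 (lmFit and eBayes) in R 4.3.3, with 4 residual and 5.96 prior degrees of freedom. The difference and both tissue effects were contrasts of this fit, adjusted by Benjamini-Hochberg over 12866 genes. All adjusted p values are from limma and 2-sided, and ± is the SE of a contrast. The difference shares its arrays with each tissue effect, so counts of genes in both are descriptions. The procedure was tested on simulated data.

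The genes and the 33 gene lists (22 pathways, 11 sets of cell markers) were chosen with earlier results of these data known. The named genes are Tbp, Polr2a and Manf, the 15 largest called differences each way, up to 8 called genes per pattern of signs, up to 10 called in both tissues, and up to 4 members by smallest p of each of 15 lists described. Other genes named are the remaining calls or are marked. Alternatives left out each array, blocked on the replicate number, and changed the filter, the probe set, the scaling, the variance model and the threshold.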

Additional observations from a re-analysis of the deposited data

Results flagged for a closer look

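All 38 genes called for the difference are listed here because the genotype effect differed between the tissues in the test of the difference itself (limma, adjusted p 0.0144 to 0.0449). Values are the muscle effect minus the cerebellum effect in log2.

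Among genes with an unadjusted p under 0.05 in muscle alone, the positive differences were Serpinb1a 2.91, Ampd3 1.82, Lix1 1.72, Ttc9 1.72, B3galt2 1.68, Stom 1.53, Prepl 1.44, Rhou 1.36, Jpt1 1.21, Smtnl1 1.21, Vwa5a 1.19, Hs6st2 1.15, Peg10 1.10, Serpinb6a 1.08, Dnaja4 1.06, Aig1 0.94 and Ttc8 0.90. The negative ones were Mss51 -2.50, Gdap1 -1.24, Mical2 -1.17, Slc25a25 -1.06 and Inha -0.93. With the same sign in both tissues and the larger effect in muscle, Gdpd3 had 1.62 and Musk 1.42. With the larger effect in cerebellum, Lgals3bp had -1.73 and Ifitm3 -1.11. With opposite signs in the tissues, Casq2 had 2.12, Rnf122 1.41, Stap2 1.28, Car9 1.14, Inpp5a 1.05, Jup 0.91, Rnf19b 0.91, Tcap -1.19, Slc13a3 -1.09, Slitrk3 -0.92 and Krt27 -0.87. Sbk1, changed in cerebellum alone, had 1.06. With values below the 40th percentile raised to it, Car9, Hs6st2, Krt27, Lix1 and Tcap were not called, and the same-sign pattern of Musk and the opposite signs of Car9, Krt27 and Tcap rest on such low values. The groups hold 2 arrays each, so no array was tested for standing apart from its group.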

How the results depend on the processing

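Leaving out 1 array at a time gave 0 to 33 calls for the difference (38 with all arrays), 131 to 457 in muscle (551), 5 to 32 in cerebellum (30) and 0 to 30 muscle calls that passed for the difference (32). An arm left with 1 array was assumed to vary like the other groups. The replicate numbers recur across tissues, but the labels do not call them animals, so the numbers were not taken to pair the arrays. Deviations of same-numbered arrays from their group means correlated at 0.0565 in KI and -0.136 in WT. These values cannot decide whether same-numbered arrays share an animal, since the arrays are of different tissues. With the replicate number as a fixed block there were 24 calls, 19 of them among the 38, and with it as a random block (correlation -0.0818) 18. A crossed block of the WT numbers, added after seeing the data, gave 25.

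With no filter, which tests 19938 genes, the calls were 3 for the difference, 246 in muscle, 18 in cerebellum and 3 muscle calls passing. With genes kept in either tissue they were 21 for the difference with 20 muscle calls passing. At the 60th percentile they were 89, with 25 among the 38, and 80 passing. Over all probe sets 0 were called, with 2968 at an unadjusted p under 0.05. Trended and robust eBayes gave 58 and 51 passing. At an adjusted p of 0.1 there were 214, with 197 of 1145 muscle calls passing. The muscle arrays fitted alone gave 206 muscle calls. The other counts stayed within 1.5 times: for the difference 43 with the mean of a gene's probe sets, 36 and 32 under quantile scaling of all arrays and within tissues, 36 with centred arrays and 39 with a variance for each tissue. The cause of these shifts was not tested. None of the 38 reversed in any alternative, and none was called in all of them.

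Among named genes that were not called, leaving out 1 array gave -0.19 to 0.22 for Manf, -0.03 to 0.39 for Rbfox3 and -0.02 to 0.29 for Rnf213. Manf reversed to -0.01, -0.12, -0.19 and -0.08 without KI cerebellum replicate 94, KI muscle replicate 97, WT cerebellum replicate 95 and WT muscle replicate 96, and to -0.02 under both quantile scalings. Rbfox3 reversed to -0.03 without KI muscle replicate 94, and Rnf213 to -0.02 without WT cerebellum replicate 96 and with the mean of its probe sets. A gene near the 40th percentile has little signal over background, which limits Gdpd3, Car9, Krt27, Lix1, Hs6st2, Musk and Tcap. The same limit holds for Slitrk3 in KI muscle and Serpinb1a in WT muscle, each with 1 muscle array below the percentile. Raising values below it to the percentile, chosen after seeing the data, gave 39 calls, 33 of them among the 38.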
